A study of Homo sapiens with 6 samples.

Results

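Translation initiation factors are the proteins that bring the ribosome, the initiator tRNA and the start codon of an mRNA together. The genes described here are those of eIF1, eIF2, eIF3, eIF5 and eIF6, with the kinases and the exchange factor that act on eIF2, and they were chosen by their symbols alone (EIF1, EIF2, EIF3, EIF5 or EIF6 at the start, without the Argonaute genes once named EIF2C). Such symbols were carried by 38 of the 10779 genes in the deposited tables. Of these, 37 had a translational efficiency, 33 had ribosome occupancy for each codon and 32 had both. EIF3K was listed only in the occupancy table, while EIF2S3L, EIF3C, EIF3CL, EIF3G and EIF3I were listed only in the translational efficiency table. EIF1AY and EIF2AK3 were listed in neither and were not analysed here.

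Ribosome profiling reads the stretches of mRNA that translating ribosomes protect from nuclease (ribosome-protected fragments, RPFs). It was carried out on HEK293 cells, an established human embryonic kidney line, in 3 replicates, with total RNA sequenced from a part of each lysate, which makes 6 libraries. All of them came from cells that the labels describe as treated with a control siRNA, and ribosomes were held in place with cycloheximide before and during lysis. The experiment has no second condition, so each mRNA was compared with the other mRNAs of the same libraries. Nothing in the labels says that the replicates were cultured independently, so the p-values measure the spread between these libraries, which may be technical.

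During initiation eIF1 and eIF1A bind the small ribosomal subunit and keep it open for scanning, and eIF5 stimulates GTP hydrolysis by eIF2 as the AUG is found. eIF2 carries the initiator methionyl-tRNA, eIF2B reloads it with GTP, and the EIF2AK kinases phosphorylate its alpha subunit under stress, which holds eIF2B back. eIF3 is the largest factor, a scaffold of many subunits on the small ribosomal subunit. eIF5B joins the large subunit, eIF6 keeps free large subunits apart from small ones, and eIF5A, known for its hypusine residue, helps elongation and termination.

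The bases around the AUG are shown first, because the start codon is what these factors select and because related genes share them. In vertebrate mRNAs the favoured context has a purine 3 bases before the AUG and a G right after it. Each line gives 10 bases before the AUG and 8 from it on, from GENCODE 44 on GRCh37, with capitals at the base 3 before the AUG, the AUG and the base after it. The first 4 are the members that lacked both favoured bases at the annotated start. The 5th is the AUG at codon 31 of EIF5A, inside its annotated CDS.
EIF1: atcgtatCgtATGTccgc
EIF1B: ctagtatCgcATGTccac
EIF3B: cgttgggCccATGCagga
EIF5A: tctcccgCgcATGTgtgg
EIF5A codon 31: gcctcttAaaATGGcaga
EIF5AL1: gcctcttAaaATGGcaga
EIF2S3: ttttggcAacATGGcggg
EIF2S3L: ttttggcAacATGGcggg
EIF3C: cgccgtcGccATGTcgcg
EIF3CL: cgccgtcGccATGTcgcg
EIF5: ataagccAaaATGTctgt
EIF3D: attttggAagATGGcaaa
EIF3F: tctcgacAagATGGccac
The A of the AUG lies at position 39845291 of chromosome 17 in EIF1, at 40351433 of chromosome 3 in EIF1B and at 2394557 of chromosome 7 in EIF3B, all on the plus strand. In EIF5A the annotated start lies at 7210366 and the AUG of codon 31 at 7212955 of chromosome 17, on the plus strand. Of the 34 members with a window, 29 had the purine, 15 had the G, 14 had both and 4 had neither. Among 9086 transcripts of the occupancy table the purine was present in 85.9%, the G in 53.2%, both in 46.1% and neither in 6.99%. The windows of EIF5AL1 and of codon 31 of EIF5A held the same bases, as did those of EIF2S3 and EIF2S3L and those of EIF3C and EIF3CL.

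Such copies matter for what follows, because a footprint is about as long as the 30-base stretches (30-mers) that were compared between genes. Over 50% of the CDS 30-mers also occurred in transcripts of other genes for 9 members. The share was 100% for EIF5AL1, 99.4% for EIF3C, 99.3% for EIF3CL, 86.0% for EIF1AX, 79.9% for EIF2S2, 66.0% for EIF3F, 64.6% for EIF5A, 62.4% for EIF2S3L and 62.3% for EIF2S3. It lay between 30.3% and 45.3% for EIF3L, EIF1, EIF6 and EIF3E and was lower for all the others. Values of these members are uncertain, since reads from one copy could have been counted for another. EIF2S3L is now named EIF2S3B in GENCODE.

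The deposited table of translational efficiency gives the ratio of RPFs to total RNA per gene and replicate, but the sources used here do not say how it was calculated. The median over all 8121 genes was 0.382, 0.380 and 0.388 in replicates 1, 2 and 3, and the median over the 37 members was 1.07, 1.11 and 1.02. Translational efficiency was at least 2-fold above the median gene for 21 members and at least 2-fold below it for 3 (limma, adjusted p under 0.05). Among all genes, 23.5% were called higher and 17.9% lower under that rule. Of the 9 members that share over 50% of their 30-mers all were higher, whereas of the 28 others 12 (42.9%) were higher and 3 (10.7%) lower, and the median translational efficiency of these 28 was 0.687. Against the median gene with no minimum size, 29 members were higher and 8 lower, in a background where 44.8% of all genes were higher and 44.5% lower. Among genes with a mean ratio over 0.1 the count was 28, since EIF3D was then no longer called (log2 difference 0.11, limma adjusted p = 0.0915).

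**Figure D1:**
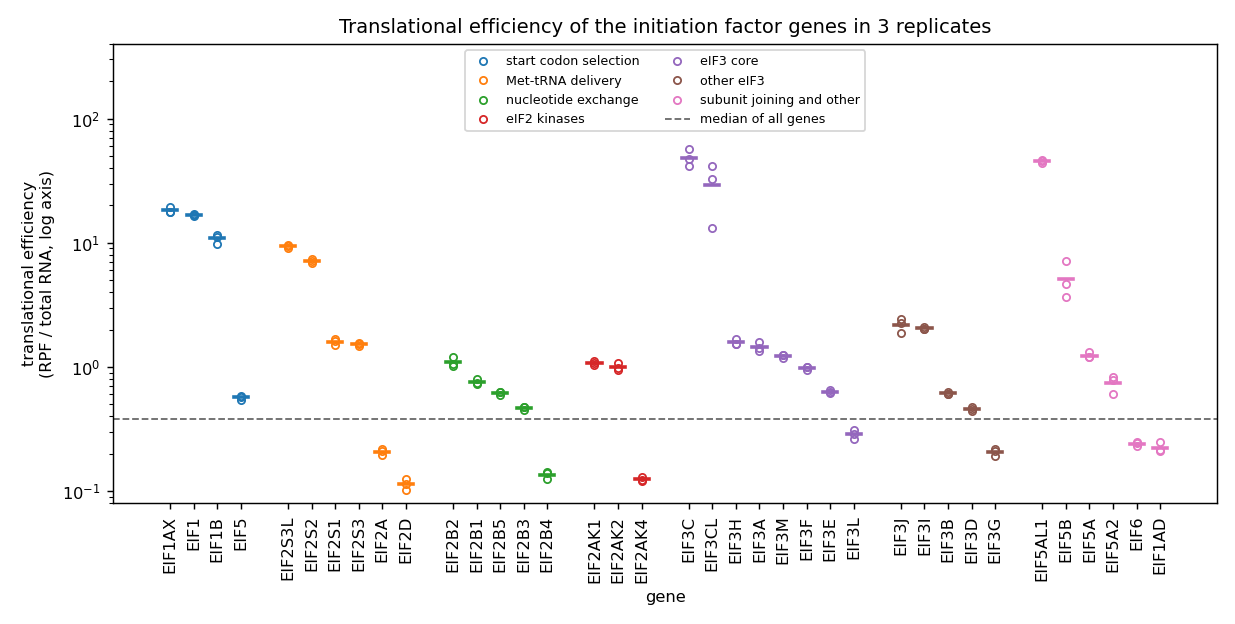
Translational efficiency (ratio of RPFs to total RNA, log axis) of the 37 members listed in that table, by role. Circles are the 3 replicates, bars their means and the dashed line the median of all genes. EIF1, EIF1AX and EIF1B lie near or above 10 and their replicates stand close together, while those of EIF3CL and EIF5B are spread out.

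The mRNAs for the scanning factors had some of the highest values. EIF1, which guards start codon selection, had a translational efficiency of 16.6, 17.2 and 16.6 in replicates 1, 2 and 3, and the mean of 16.8 ± 0.356 (SD, n = 3) lay at percentile 99.5 of all genes. Its log2 difference from the median gene was 5.42 ± 0.05 (SE), with a limma adjusted p of 4.19e-07 for a difference beyond 2-fold. EIF1B, a close relative of unsettled role whose CDS shares 82.2% of its bases with EIF1 over the same length but holds no 30-mer of another gene, had 11.7, 11.2 and 9.72 (limma adjusted p = 6.69e-07). EIF1AX, the X-linked gene of eIF1A, had 17.8, 17.6 and 19.3 (limma adjusted p = 4.19e-07), with the shared sequence given above. The ranges of EIF1AX and EIF1 did not overlap, and both lay above all replicates of EIF1B. EIF5 stood far below them with 0.575, 0.546 and 0.588, a mean of 0.569 ± 0.0218 (SD, n = 3). That was above the median gene (limma adjusted p = 1.49e-04) but by less than 2-fold.

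In-frame ribosome occupancy, which the authors give per codon and divide by mRNA abundance, put the same genes high. The mean over the CDS was 0.733 for EIF1B, 0.651 for EIF1 and 0.400 for EIF1AX, at percentiles 99.4, 99.2 and 98.7 of the 9570 transcripts, and 0.0774 for EIF5 at percentile 74.6. The median over all transcripts was 0.0450. Across the 32 members with both values the Spearman coefficient between translational efficiency and occupancy was 0.77, and it was 0.69 across the 6912 genes with both. These measures share libraries and are no independent evidence of each other.

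The occupancy values could be taken apart into whole reads, because each value of a transcript is a sum of whole multiples of 3 numbers, which are what 1 read counts for in the 3 RPF libraries. All reads of the 33 members were recovered this way, between 726 for the CDS of EIF5A2 and 127765 for that of EIF5A, with a median of 22898. The libraries are called A, B and C by falling depth (29125772, 23313091 and 15501270 in-frame reads), since the values do not say which replicate number each one has. Footprint density is given below as in-frame reads per codon of the CDS per 1000000 in-frame reads of the library, and it compares genes per length. The inverse of the worth of a read gives mRNA abundance, here relative to the median transcript. Occupancy is density divided by abundance by its construction, so the 3 quantities are not independent. The coefficient of variation of density over the libraries had a median of 3.57% and a maximum of 11.3% over the members.

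Density separated genes that occupancy put together. EIF1 had a density of 4.67, 5.10 and 4.69 in libraries A, B and C, and EIF1B 0.726, 0.818 and 0.723. The ratio of the densities was 6.38 ± 0.137 (SD, n = 3) and that of mRNA abundance 7.20 ± 0.723 (SD, n = 3), so that the pair had similar occupancy at very different output. EIF1AX had 4.95, 4.59 and 4.75, a range that overlapped with that of EIF1. EIF5 had 0.686, 0.631 and 0.646 and lay below every library of EIF1B.

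eIF2 is a trimer of the alpha (EIF2S1), beta (EIF2S2) and gamma (EIF2S3) subunits. All were at least 2-fold above the median gene in translational efficiency. EIF2S1 had 1.62, 1.49 and 1.69 (limma adjusted p = 1.94e-05) and EIF2S3 had 1.54, 1.46 and 1.55 (limma adjusted p = 1.19e-05), and their ranges overlapped. EIF2S2 had 7.43, 7.11 and 6.91 (limma adjusted p = 4.51e-07), apart from both, and EIF2S3L had 9.42, 9.11 and 9.69 (limma adjusted p = 4.19e-07). The order was different in footprint density, with 1.07 ± 0.0128 for EIF2S1, 1.43 ± 0.0744 for EIF2S2 and 1.85 ± 0.133 for EIF2S3 (SD, n = 3), and the ranges over the libraries did not overlap. Their mRNA abundances were 4.49 ± 0.0209, 8.45 ± 0.350 and 18.1 ± 1.09 times the median transcript (SD, n = 3). Abundance thus spanned 4.03-fold and density 1.74-fold, in the same order. Occupancy fell along that order, from 0.176 for EIF2S1 through 0.126 for EIF2S2 to 0.0760 for EIF2S3. EIF2S2 shares 79.9% and EIF2S3 62.3% of their 30-mers with other genes and EIF2S1 none, and the part of this in the order was not tested.

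Among the members with both values, EIF2S2 had the highest quotient of translational efficiency to occupancy. The former was 57.0 times the latter, against a median of 7.72 over all genes with both values, and the same quotient was 45.6 for EIF1AX and 25.8 for EIF1. It was 20.0 for EIF2S3 and 23.8 for EIF3F, which like EIF2S2 and EIF1AX share over 50% of their 30-mers. EIF5A and EIF5AL1 share over 50% too but had quotients of 5.69 and 2.50. EIF1 shares 41.5%, while EIF2B2 with a quotient of 26.3 and EIF3H with 23.1 share none. The part of shared sequence in this was not tested.

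Of the other proteins that can bring a tRNA to the ribosome, EIF2A and EIF2D stood at the low end. EIF2D, which acts in recycling and reinitiation, had a translational efficiency of 0.113, 0.103 and 0.124, at least 2-fold below the median gene (log2 difference -1.68 ± 0.07 SE, limma adjusted p = 4.92e-04). Its occupancy of 0.0124 was the lowest among the 33 members, at percentile 8.89, although its mRNA was 3.91 ± 0.0663 (SD, n = 3) times as abundant as the median transcript. EIF2A had 0.220, 0.194 and 0.210, below the median gene but by less than 2-fold. Its occupancy of 0.0796 lay at percentile 75.7, so the 2 tables placed this gene on opposite sides of the median. The same held for EIF1AD, at percentile 29.1 in translational efficiency and 84.7 in occupancy. The other way round, EIF2B2, EIF2B5, EIF3B and EIF3F were above the median in translational efficiency and below it in occupancy.

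eIF2B is built from the regulatory subunits alpha, beta and delta (EIF2B1, EIF2B2 and EIF2B4) and the catalytic subunits gamma and epsilon (EIF2B3 and EIF2B5). None shared a 30-mer with another gene. Their translational efficiencies were spread widely, and no neighbours in the order overlapped. EIF2B2 was highest with 1.07, 1.20 and 1.02 (limma adjusted p = 7.10e-04 for a difference beyond 2-fold). EIF2B1, EIF2B5 and EIF2B3 followed with means of 0.756, 0.618 and 0.466, above the median gene but by less than 2-fold. EIF2B4 had 0.139, 0.142 and 0.125 and was at least 2-fold lower (log2 difference -1.44 ± 0.07 SE, limma adjusted p = 0.00201), a call that was lost with a pseudocount of 0.1 in place of 0.01 (log2 difference -1.04, limma adjusted p = 0.526).

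The same subunits lay closer together in occupancy, from 0.0364 for EIF2B5 to 0.0611 for EIF2B3, a 1.68-fold range around the median transcript. Footprint density ran from 0.112 ± 0.00669 for EIF2B4 and 0.136 ± 0.00410 for EIF2B5 through 0.204 ± 0.0112 for EIF2B2 to 0.357 ± 0.00623 for EIF2B3 and 0.369 ± 0.0132 for EIF2B1 (SD, n = 3). Of these neighbours only EIF2B3 and EIF2B1 overlapped. The 3.29-fold range of density went with a 2.60-fold range of mRNA abundance, in the same order. All lay below every subunit of eIF2 in density, the lowest of which was EIF2S1.

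Of the kinases that phosphorylate eIF2, EIF2AK1 (HRI, which responds to lack of haem and to mitochondrial stress) had a translational efficiency of 1.07, 1.11 and 1.03 and EIF2AK2 (PKR, which senses double-stranded RNA) had 1.07, 0.984 and 0.944. Both were at least 2-fold above the median gene (limma adjusted p = 2.71e-04 and 0.00158), and their ranges overlapped. EIF2AK4 (GCN2, which senses amino acid shortage) was at least 2-fold below it with 0.131, 0.123 and 0.121 (log2 difference -1.54 ± 0.06 SE, limma adjusted p = 5.93e-04). With a pseudocount of 0.1 in place of 0.01 this call was lost (log2 difference -1.10, limma adjusted p = 0.0568). Its footprint density of 0.0318 ± 0.000578 (SD, n = 3) was the lowest of all members, beside 0.230 ± 0.00295 for EIF2AK1 and 0.242 ± 0.00270 for EIF2AK2.

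eIF3 has a core of subunits with related folds, among them EIF3A, EIF3C, EIF3E, EIF3F, EIF3H, EIF3K, EIF3L and EIF3M, and further subunits EIF3B, EIF3D, EIF3G, EIF3I and EIF3J. EIF3D can bind the cap of some mRNAs, and EIF3J is held loosely by the complex. Of the 13 eIF3 genes with a translational efficiency, 8 (61.5%) were at least 2-fold above the median gene, against 23.5% of all genes, and 0 were at least 2-fold below it, against 17.9%. Without EIF3C and its near-copy EIF3CL, 6 of 11 were higher, among them EIF3F with its shared sequence, and the range was from 0.206 for EIF3G to 2.19 for EIF3J, with a median of 0.982. EIF3C had 47.1, 41.4 and 57.0 and EIF3CL had 32.7, 13.1 and 41.5, which overlapped, and neither can be told from the other at nearly all of their sequence. EIF3J had 2.45, 1.87 and 2.25 (limma adjusted p = 2.92e-05) and EIF3I had 2.08, 2.02 and 2.03 (limma adjusted p = 2.31e-06), also overlapping. EIF3H, EIF3A, EIF3M and EIF3F had means of 1.58, 1.45, 1.22 and 0.982 and were called as well. The means of EIF3E (0.631), EIF3B (0.614) and EIF3D (0.457) were above the median gene and those of EIF3L (0.287) and EIF3G (0.206) below it, all by less than 2-fold.

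In footprint density the eIF3 subunits were far more alike than in mRNA abundance or occupancy. Over the 10 subunits in the occupancy table, density spanned 2.47-fold, mRNA abundance 9.63-fold and occupancy 6.98-fold. EIF3L, EIF3A, EIF3D, EIF3F, EIF3J, EIF3B and EIF3H lay between 0.854 and 1.17, a 1.36-fold range, and neighbours in this order overlapped over the libraries except EIF3B and EIF3H. The mRNA abundances of these 7 spanned 5.71-fold. They were grouped after their values were seen, so the narrow range is a description of these genes and no test. EIF3K (1.67 ± 0.0637), EIF3M (2.09 ± 0.0328) and EIF3E (2.11 ± 0.0877; SD, n = 3) stood higher, with a gap to EIF3H in every library. EIF3M shared 0.0912% of its 30-mers, EIF3K 6.37% and EIF3E 30.3% with other genes. Of the 7 grouped above, EIF3F shared 66.0%, EIF3L 45.3% and EIF3J 15.7%, and the rest none.

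The clearest contrast was between EIF3J and EIF3L. EIF3L had a density of 0.870, 0.874 and 0.820 in libraries A, B and C and EIF3J had 1.08, 0.986 and 1.06, a ratio of 1.22 ± 0.0817 (SD, n = 3). The mRNA of EIF3L was 19.8 ± 0.883 times as abundant as the median transcript and that of EIF3J 3.48 ± 0.349 times (SD, n = 3). Occupancy was therefore 0.0320 for EIF3L, at percentile 34.4, and 0.223 for EIF3J, at percentile 96.0. Both genes have limits, since EIF3L shares 45.3% of its 30-mers and EIF3J 15.7%. The first 41 of 205 codons of EIF3J also held only 126 of its 14496 reads. The part of transcript choice and of shared sequence in the contrast was not tested. EIF3E was the most abundant of the 10 eIF3 mRNAs with such a value, at 33.5 ± 1.47 (SD, n = 3), with an occupancy of 0.0468.

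**Figure D2:**
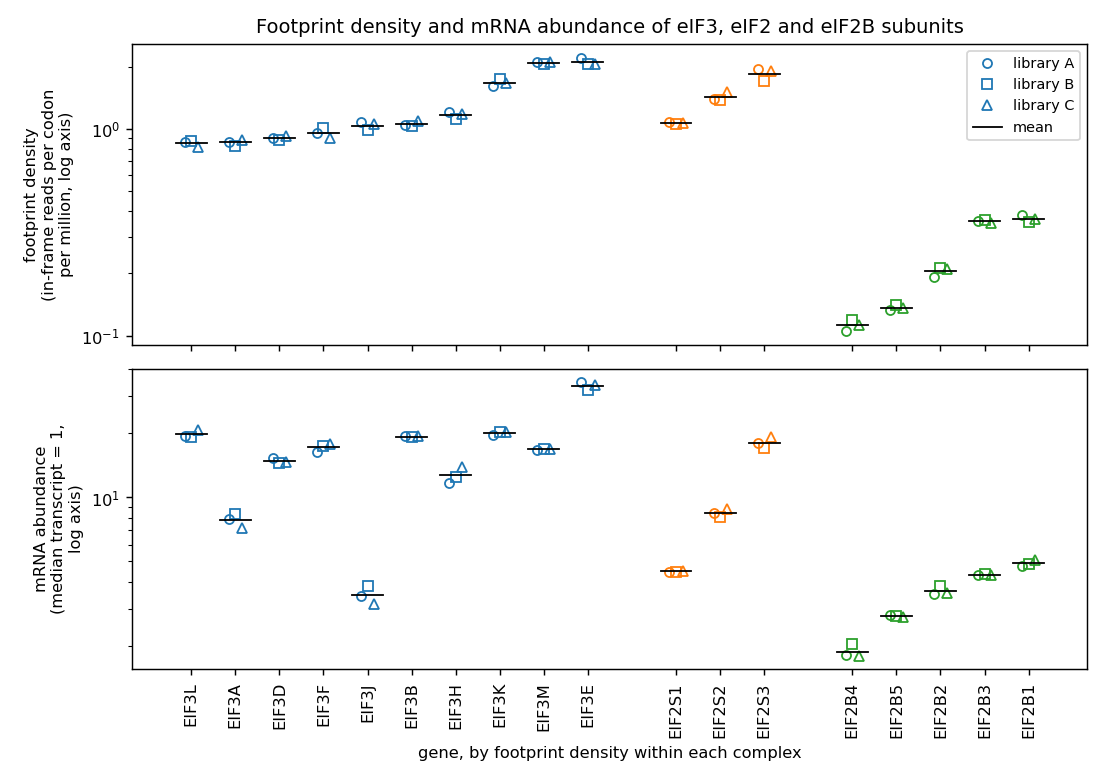
Footprint density (upper panel, in-frame reads per codon per 1000000) and mRNA abundance (lower panel, median transcript = 1) of subunits of eIF3, eIF2 and eIF2B, both on log axes. Symbols are libraries A, B and C and bars their means. Density of eIF3 stays within 2.47-fold while mRNA abundance of the same subunits spans 9.63-fold, and for eIF2 and eIF2B both increase in the same order.

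As a set, the 33 members were abundant mRNAs with many footprints. Density was above the median transcript (0.0571) for 32 of them and mRNA abundance for 29, with member medians of 0.854 and 4.90, while occupancy was above the median transcript for 24. EIF2AK4 was the member below the median in density.

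The remaining factors differed widely. EIF5B, the GTPase that joins the subunits, had a translational efficiency of 7.14, 3.67 and 4.63, a mean of 5.15 ± 1.79 (SD, n = 3) that was at least 2-fold above the median gene (limma adjusted p = 7.09e-05), and an occupancy of 0.526 at percentile 99.1. Its density was steady at 0.551, 0.532 and 0.558 in libraries A, B and C, whereas its mRNA abundance was 0.937, 1.16 and 0.511. The libraries thus differed in the mRNA value and little in the footprints, and the part of this in the spread of translational efficiency was not tested. EIF6 had 0.230, 0.243 and 0.250 and EIF1AD, a nuclear relative of eIF1A, had 0.247, 0.213 and 0.209. Both were below the median gene by less than 2-fold and their ranges overlapped. EIF6 was nonetheless an abundant mRNA, 11.7 ± 0.0627 (SD, n = 3) times the median transcript, with a density of 0.586 ± 0.0183.

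EIF5A had the highest footprint density of the members except its near-copy when all codons of the CDS were counted. Its translational efficiency was 1.20, 1.20 and 1.31 (limma adjusted p = 8.21e-05), and its density was 10.1, 10.0 and 10.5 in libraries A, B and C. For EIF5AL1 translational efficiency averaged 45.5 ± 1.29 (SD, n = 3), with a density of 11.3, 11.1 and 11.7. Its mRNA abundance was nonetheless only 0.463 ± 0.0102 of the median transcript (SD, n = 3), against 34.9 ± 1.08 for EIF5A. Without the first 15 and last 5 codons mean density was 11.4 for EIF5A and 10.6 for EIF5AL1, in the reverse order. EIF5A2, the paralog expressed in few tissues, had 0.782, 0.610 and 0.835 and a density of 0.0687 ± 0.00774 (SD, n = 3), so EIF5A exceeded it 150 ± 16.2 fold (SD, n = 3).

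Set side by side, EIF5A and EIF5AL1 held equal read numbers at most codons. EIF5A is represented by a transcript whose CDS has 185 codons with the stop, 30 more at its 5′ end than that of EIF5AL1. From codon 31 of EIF5A on, 126 of 155 codons (81.3%) held equal numbers of reads in each of the 3 libraries, and at no codon did EIF5AL1 have more than EIF5A. The highest codon, 160 in EIF5A and 130 in EIF5AL1, held 8037, 5676 and 4165 reads in libraries A, B and C in both. The coding sequences differed at 5 bases over this stretch. At 6 codons between 39 and 45 of EIF5AL1, EIF5A had 6745 reads and EIF5AL1 had 1. At the remaining codons with unequal numbers EIF5A had slightly more, as at codon 7 of EIF5AL1 with 6041 reads against 5914. Where the numbers were equal, reads of these genes cannot be told apart.

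**Figure D3:**
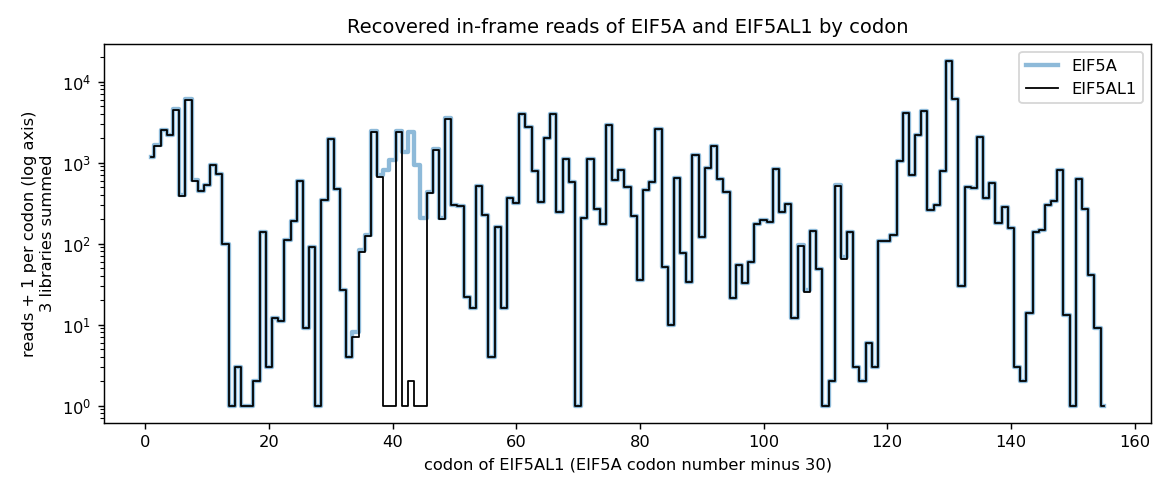
Recovered in-frame reads at each codon (reads + 1, log axis, 3 libraries summed) of EIF5A and EIF5AL1, aligned by 30 codons. The lines lie on each other at most codons, and EIF5AL1 drops to at most 1 read at 6 codons between 39 and 45.

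The annotated start of EIF5A was also nearly free of footprints. Codons 1 to 27 held 41 reads of 127765, codon 28 held 979, and codon 31, the AUG with the favoured context shown above, held 1189. The start codon itself had 0.0268 of the mean occupancy of the CDS. The first 19 codons held 19 reads. All 185 codons entered the density of EIF5A given above, these nearly empty ones included.

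Other members had parts of the CDS with few footprints. The first 20% of the codons held a median of 18.6% of CDS reads over the 33 members, and under 5% in EIF3B, EIF3F and EIF3J. In EIF3J the first 41 of 205 codons held 126 of 14496 reads, or 0.731%, 1.10% and 0.805% in libraries A, B and C. In EIF3B the share was 3.58%, 3.92% and 3.29%, and in EIF3F 4.90%, 5.54% and 3.53%, where the second 10% of the codons held 0.277%. Several transcripts differ from the ones GENCODE lists, and the part of transcript choice in these gaps was not tested. At the other end of the scale EIF1B had 34.1% of its CDS reads in the first 10% of the codons, with codon 12 alone holding 16.3%, 18.8% and 19.4% in libraries A, B and C.

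**Figure D4:**
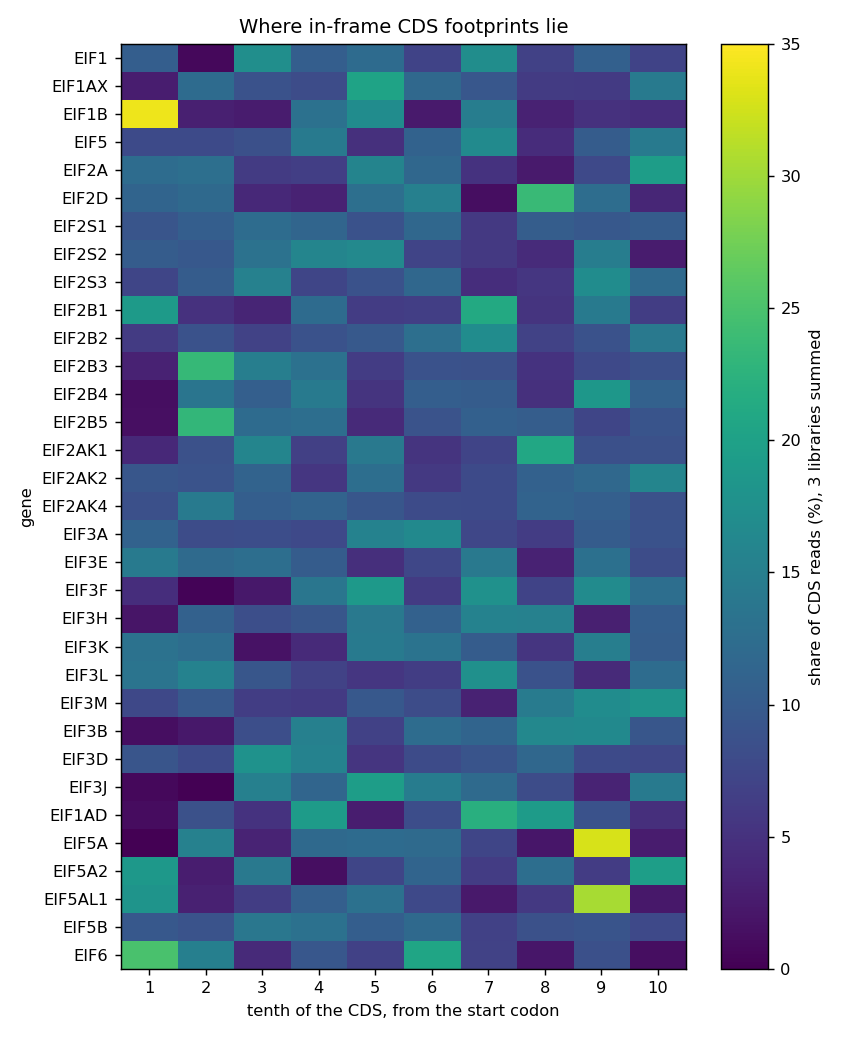
Share of in-frame CDS reads (%, 3 libraries summed) in 10 equal parts of the CDS, from the start codon at the left, for the 33 members with ribosome occupancy. The 2 leftmost cells are dark in EIF3J and EIF3B, and the brightest cells are the first part of EIF1B and the next to last part of EIF5A and EIF5AL1.

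Occupancy at the start codon varied just as much. It was 13.3 times the CDS mean for EIF3E, 10.5 times for EIF3F, 9.76 times for EIF3D, 8.04 times for EIF2B1, 5.99 times for EIF1B and 5.30 times for EIF1. These 6 were the members above 5 times the mean. The median was 0.361 over the members and 0.286 over all transcripts. Of the 4 members that lack both favoured bases at the annotated start, EIF1B and EIF1 were among these 6. EIF3B had 3.38 and EIF5A 0.0268 times the mean. In EIF5A this is the annotated start, with few footprints near it, while the AUG at codon 31 has both bases and held 1189 reads. Members with both bases ranged from 0 for EIF5A2 and 0.0717 for EIF3J to the values of EIF2B1, EIF3D and EIF3F above. In EIF3E the start codon was the highest of the CDS, with 763, 666 and 459 reads in libraries A, B and C. No window was taken for EIF3E, so it does not enter the comparison with the favoured bases.

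Few in-frame reads lay outside the CDS. Reads in the other frames are not part of these values, so upstream translation in those frames is not counted. The share of reads in the 5′UTR had a median of 0.202% over the members and was over 1% for 8 members. The share of occupancy values had a median of 0.359% over 9090 transcripts with at least 100 CDS reads. These measures are not quite alike. Some members have few 5′UTR codons, as EIF2AK2 with 2 and EIF2S3 with 3, and the part of 5′UTR length was not tested. The share of reads was 9.68%, 8.47% and 9.62% in libraries A, B and C for EIF1AD, from 187 reads in all, at percentile 94.4 of transcripts. EIF5, an mRNA known for upstream open reading frames, had 5.16%, 5.35% and 4.46% from 1031 reads over 222 codons, at percentile 88.9. These reads were spread out, with 105 at the highest codon, 17 before the AUG. In the EIF5 window above the codon 3 before the AUG is a stop (taa) in the frame of the CDS, and EIF1B has one (tag) at the same place. EIF1B had 2.41%, 2.28% and 3.09%.

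In EIF1AX most of the upstream reads lay at a single codon. The share in the 5′UTR was 1.77%, 2.02% and 1.52%, and 557 of its 862 reads (249, 199 and 109 in libraries A, B and C) fell on the 9th codon before the AUG. The stretch from that codon to the AUG, on the minus strand of chromosome X from 20159785 down to 20159756 of GRCh37, is shown with that codon and the AUG in capitals.
EIF1AX: AGAcgccgcgaggtcgccgccaccgccATG
The nearest stop codon upstream in this frame lies 53 codons before the AUG. EIF5A2, with 14 such reads, had 0.852%, 2.20% and 3.49% and EIF3K had 1.85%, 1.63% and 1.26%. EIF5AL1 had 1.46%, 1.43% and 1.32%, from 1716 reads. Of these, 657 lay at the codon 4 before the AUG and 629 at the codon 1 before it. In occupancy values its share was 1.40%, and it was 0.116% without the 5 codons next to the AUG. Whether these reads came from EIF5A was not tested. EIF2B1 had 1.22%, 1.32% and 0.854%.

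**Figure D5:**
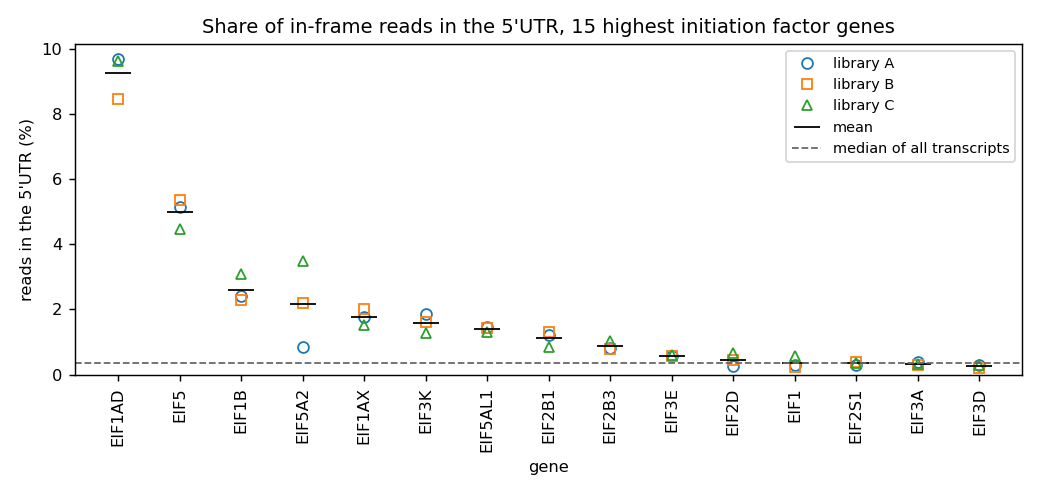
Share of in-frame reads in the 5′UTR (%) for the 15 members with the highest mean share. Symbols are libraries A, B and C, black bars their means and the dashed line the median of all transcripts, taken from occupancy values. EIF1AD and EIF5 stand above the others in every library, while the 3 libraries of EIF5A2 range from 0.852% to 3.49%.

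In the 3′UTR the share was over 0.5% for EIF5A2, EIF1, EIF1B and EIF1AD. It was 0.907% on average for EIF1, from 337 reads at percentile 92.1, and 1.40% for EIF5A2, from 11 reads. The median over the members was 0.0133% as a share of reads, and that over all transcripts 0.0184% as a share of occupancy values.

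The other genes of the pathway were taken from a list of the eIF4 family, recycling and reinitiation factors, hypusination enzymes and regulators and targets of eIF2 phosphorylation. Of the 32 that had a translational efficiency, 9 (28.1%) were at least 2-fold above the median gene and 5 (15.6%) at least 2-fold below it, near the 23.5% and 17.9% of all genes, and their median was 0.470. The highest were EIF4E, the cap-binding protein, with 7.61, 7.01 and 7.14, EIF4H, a cofactor of the helicase eIF4A, with 3.38, 3.31 and 3.28, and EIF4EBP2, a repressor of eIF4E, with 3.17, 3.13 and 2.82. The lowest were ATF4, a stress transcription factor held back by upstream reading frames while eIF2 is active, with 0.0469, 0.0560 and 0.0490, EIF4G1, the scaffold of the cap-binding complex, with 0.0724, 0.0767 and 0.0734, and DHPS, an enzyme that makes hypusine on eIF5A, with 0.0758, 0.0871 and 0.0963. All 6 were called (limma, adjusted p under 0.05 for a difference beyond 2-fold). EIF4G1 and DHPS thus had less than EIF2D, the lowest member, in every replicate.

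Of the genes taken as markers of HEK293 cells, VIM, KRT8, KRT18, NEFM, NEFL and INA were listed in both tables, EYA1 in the occupancy table and PAX2 in neither. Of 8 markers of other cell types only COL1A1 was listed, in both tables.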

How the data were processed

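Per the study's methods, RPF and total RNA libraries came from the same lysates of HEK293 cells. The authors removed adapters, PCR duplicates and molecular identifiers, aligned RPFs to the hg19 transcriptome, and kept for each gene the most abundant transcript, leaving out those with few RPFs or a short CDS. The submitters' processing notes name cutadapt 1.16, Bowtie 1.1.2, TopHat2 2.1.1 and HTSeq 0.9.1. The deposited translational efficiency is a linear ratio per gene and replicate, whose formula the sources used here do not state, nor how reads with several alignments were treated. The deposited occupancy holds in-frame RPF counts per codon, scaled to library size, divided by the TPM of the mRNA and combined over replicates. Columns of the ratio table were matched to RPF libraries by replicate number.

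Translational efficiency was tested with limma 3.58.1 (R 4.3.3) on log2(ratio + 0.01), with the median over genes and replicates taken as the reference and a moderated test, with the variance trend over mean level, against a 2-fold threshold or against no difference, Benjamini-Hochberg adjusted over all 8121 genes with calls at 0.05, keeping low values. On this scale the pseudocount understates differences of genes with low ratios. Since each ratio was formed from an RPF and a total RNA library of 1 lysate, it already contains their pairing. The test and the recovery of reads were tested on simulated data.

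Reads were recovered from the occupancy values for 99.7% of 9570 transcripts, 67940133 in-frame reads in all. Of these, 80.2% were matched exactly and the others estimated, while all reads of the initiation factors were matched, with more than 1 possible match at 3 of 31147 values. For 31 transcripts a list broken over lines was rejoined. Libraries were told apart by depth within each transcript and not matched to replicate numbers. Exact Poisson intervals (95%) of density cover counting error only, and their upper bound was at most 1.16 times the lower. CDS codons include the stop codon. Positions and sequences were read from GENCODE 44 on GRCh37 (lifted), by gene symbol and CDS length, or the longest CDS for genes absent from the occupancy table. No windows are shown for EIF3E, EIF3H, EIF2AK2 and EIF2B4. The matched transcripts of EIF2AK2 and EIF2B4 have 0 bases of 5′UTR. EIF3E and EIF3H lie on chromosome 8, which was left out for the members but not for the 9086 transcripts. Scripts ran under Python 3.11.15 with scipy 1.17.1, pandas 2.3.3 and numpy 2.4.6.

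The genes, the pathway and marker lists and the tests were chosen with earlier results of these data known. All genes matching the symbol rule are named, and of the pathway list the 3 highest and 3 lowest. The marker list of HEK293 cells is not reported here in full.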

Additional observations from a re-analysis of the deposited data

How the results depend on the processing

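Translational efficiency calls were repeated with pseudocounts of 0.1 and 0.001, with each replicate set against its own median (the replicate block), with genes over a mean of 0.1, with genes that are also in the occupancy table, without the trend and without each replicate. With the replicate block 21 members were at least 2-fold higher and 3 lower, as without it, and it changed no other call of a member. Among all genes, those at least 2-fold higher went from 1907 to 1908 and those at least 2-fold lower from 1451 to 1460. At a pseudocount of 0.1, 1 member and 856 genes of all were at least 2-fold lower, because the added value shrinks low ratios, and EIF2AK4 (log2 difference -1.10) and EIF2B4 (-1.04) were no longer called. With genes over a mean of 0.1, EIF3D lost its call against the median gene with no minimum size. No direction reversed under any of these settings. The mean of log2 values over members, which is no median, corresponds to a ratio of 1.34. The median over members, 1.07 as the mean of the replicate medians, lay between 1.05 and 1.09 without each replicate. It was 0.666 without members that share over 50% of their 30-mers, where the median of the mean ratios was 0.687. Without those sharing members, an alternative chosen after seeing the data, 12 members were at least 2-fold higher.

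Occupancy had a median over members of 0.0760 as a mean over codons, 0.0204 as a median over codons, 0.0722 without the first 15 and last 5 codons and 0.0658 without the highest 1% of codons. Leaving out the first 15 and last 5 codons changed the range of density from 2.47-fold to 2.43-fold for eIF3 and from 1.74-fold to 1.62-fold for eIF2. The 5′UTR share had a median of 0.145% without the 5 codons next to the AUG. The cause was not tested where none is given. Shared sequence limits 9 members, and EIF5A2, with 726 CDS reads, is limited by depth.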
